A study of Mus musculus with 4 samples.

Results

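Small nucleolar RNAs, small Cajal body RNAs and the non-coding genes that carry them in their introns were compared between GC-2 and GC-1, both mouse lines of testicular germ cell origin. Members were chosen by gene name: every gene of the array named Snora, Snord, Scarna or Snhg followed by a number, and Gas5. This rule found 29 of 37074 gene names, measured by 39 of 56605 probes. Of these, 13 probes of 13 genes carry the name of a small RNA and 26 probes of 16 genes the name of a host gene. The group as such was selected on the log2 differences between these lines in these data, so the counts and medians over its members are a description and carry no test.

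GC-1 (GC-1 spg) goes back to type B spermatogonia immortalised by SV40 large T antigen. GC-2 (GC-2(spd)ts) goes back to spermatocytes that received large T antigen together with p53 in a temperature-sensitive form. Both lines were grown in DMEM with foetal bovine serum and lysed in Trizol close to confluence, and no other treatment is given. Each line was measured on 2 one-colour arrays of 60-base probes, from total RNA amplified with an oligo-dT primer. Whether replicates were separate cultures is not given by the titles. The p-values therefore cover the spread between these arrays alone, and that spread may be technical. Of 8 germ cell marker genes, 2 (Ddx4 and Zbtb16) were well above background on both GC-1 arrays, 1 (Zbtb16) on both GC-2 arrays, and Dazl, Kit and Dmc1 on none. Ddx4 and Sycp3 were above background on 1 GC-2 array each, and Sycp1 and Stra8 on 1 GC-1 array each. Markers of Sertoli, Leydig and peritubular cells (Wt1, Sox9, Nr5a1, Star, Cyp17a1, Acta2 and Myh11) were above background on both arrays of both lines, as were Krt18 of epithelium, Pecam1 of endothelium and Ptprc of leukocytes. The Sertoli marker Amh was above background on 0 arrays and the epithelial marker Cdh1 on 1, in GC-2. Each marker counted by its best probe in each line, of 1 to 3 for germ cell genes, 4 for Acta2 and Myh11 and 7 for Ptprc. A single slide held the 4 arrays, each line in a row of its own, so position and line cannot be told apart.

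The arrays differed in brightness. The processed signal had a 75th percentile of 666 and 693 in GC-1 against 416 and 199.9 in GC-2. Levels below are log2 processed signals minus that percentile, so that a level of 0 is as bright as the 75th percentile of its own array. Differences are GC-2 minus GC-1 on the same log2 scale, with the standard error (SE) of limma and n = 2 arrays per line. A probe was called when its limma p-value, adjusted by Benjamini-Hochberg over 36692 tested probes, was under 0.05. Probes for the E1A spike-in transcripts lay 2.07 log2 higher in GC-2 on this scale, 8 of 8 in the same direction, so scaling on them instead would lower every difference by that amount.

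Box C/D small nucleolar RNAs guide ribose methylation, and box H/ACA RNAs guide pseudouridylation, mainly of ribosomal RNA. Small Cajal body RNAs do the same for spliceosomal RNAs. In mammals nearly all are cut out of introns after splicing, trimmed by exonucleases up to the edges of the protein-bound particle, and carry no poly(A) tail. Their hosts are either protein-coding genes, many of them for ribosomal proteins and translation factors, or non-coding genes such as Gas5 and the Snhg genes, whose spliced transcripts are polyadenylated and often short-lived.

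The probes named for the small RNAs have the following sequences, shown because they tell which bases were read. They are given in the sense of the RNA, with capitals for an ACA or CTGA found in the last 10 bases, the letters that close the tail end of H/ACA and C/D RNAs. Snora73a, at chr4:131908690-131908749 of mm9 on the minus strand, is shown first. Scarna13 at chr12:106269285-106269344 (minus), Snora34 at chr15:98350149-98350208 (minus), Snora78 at chr17:24856697-24856756 (minus), Snora81 at chr16:23110887-23110946 (plus) and Snord17 at chr2:144091718-144091777 (minus) are those on which the differences below turn.
Snora73a: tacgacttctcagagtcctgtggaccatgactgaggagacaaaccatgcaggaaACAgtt
Scarna13: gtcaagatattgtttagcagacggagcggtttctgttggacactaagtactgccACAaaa
Snora34: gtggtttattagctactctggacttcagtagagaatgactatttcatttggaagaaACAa
Snora78: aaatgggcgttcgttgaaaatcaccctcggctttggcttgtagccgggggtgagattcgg
Snora81: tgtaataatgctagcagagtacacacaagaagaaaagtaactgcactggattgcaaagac
Snord17: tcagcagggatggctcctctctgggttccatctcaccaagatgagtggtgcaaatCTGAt
In Snora73a and Scarna13 the ACA began at base 55 of the probe and was followed by 3 more bases. In Snora34 it was followed by 1 base, and the CTGA of Snord17 by 1 base. An ACA lay in the last 10 bases of 4 of the 10 H/ACA and Cajal body probes (40.0%), against 14.5% of all 56605 probes. On the opposite strand the counts were 3 of 10 and 17.0%. A CTGA lay in the last 10 bases of 1 of 3 box C/D probes, against 4.18% of all probes, and on the opposite strand of 1 of 3, against 3.93%.

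Host probes for the spliced transcripts follow. Shown are Snhg10 at chr12:106268866-106268925 (minus) and Snhg9 at chr17:24856476-24856535 (minus), which surround Scarna13 and Snora78. Snhg18 at chr15:32170363-32170422 (minus) is the host that fell the most. Capitals mark AATAAA, the common polyadenylation signal.
Snhg10: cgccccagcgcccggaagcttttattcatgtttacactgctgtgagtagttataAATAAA
Snhg9: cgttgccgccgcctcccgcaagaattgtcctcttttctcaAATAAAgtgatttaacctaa
Snhg18: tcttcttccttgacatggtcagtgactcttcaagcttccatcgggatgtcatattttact
AATAAA was found in 5 of the 15 host probes used to represent a gene (33.3%) and in 5 of all 26 host probes (19.2%). It was in 0 of the 13 small RNA probes and in 9.77% of all probes. On the opposite strand AATAAA was in 1 of 15, 2 of 26, 1 of 13 and 3.85%. With so few probes, no difference between the sets is read from these counts. No small RNA probe held TGATGA, the box C core, on its own strand (2.60% of all probes did) or on the opposite strand (2.26%). The accession lists of the probes add a limit. The Snora78 probe and the bright Snhg9 probe list 1 expressed sequence tag in common. The Snora52, Snora81 and Snord33 probes list an Ensembl transcript beside the small RNA, and those of Snora23 and Snora74a a RIKEN cDNA. The Scarna13 and Snord7 probes list a second RefSeq RNA. With oligo-dT priming, signal from a trimmed small RNA and from an unspliced or retained intron of the host cannot be told apart.

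Relative to the 75th percentile, the small RNA probes read higher in GC-2. All 13 probes were tested, 11 were called higher by limma, 0 lower, and 2 were not called, and the 2 had positive differences as well. Over all 36692 tested probes, 24.1% were called higher and 21.6% lower, and since the choice of the group knew this contrast, nothing is read from the comparison of these shares. The arrays of the lines did not overlap for any of the 13, against 40.7% of all probes that were higher without overlap and 36.3% that were lower without overlap. The median difference was 2.27 log2, while the median of all probes was 0.068. Snora81 has only a bound, and the other 12 ranged from 0.83 to 3.56. Snora81, Snora23 and Scarna6 passed the filter through GC-2 alone. With the filter set to all 4 arrays, the other 10 were tested and 10 were called higher. Of all 30316 probes that passed this filter, 8049 were called higher and 6307 lower, and again nothing is read from the comparison. On the unscaled signal, 6 of the 13 were brighter on both GC-2 arrays than on both GC-1 arrays, against 10.4% of all tested probes.

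**Figure D1:**
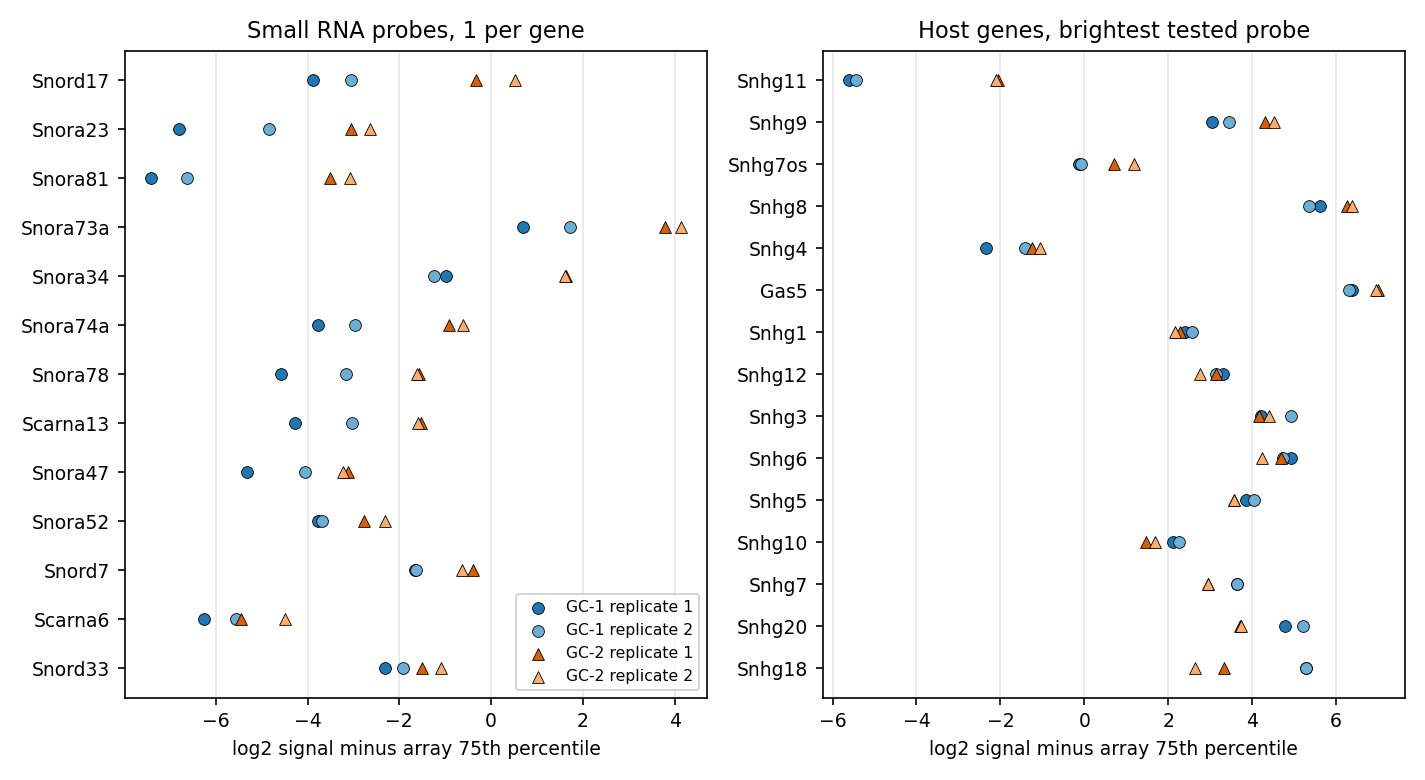
Levels on each array of the 13 small RNA probes (left) and the brightest tested probe of the 15 tested host genes (right), as log2 processed signal minus the array's 75th percentile. Circles are GC-1 and triangles GC-2, 1 point per array, and genes are ordered by their difference, Snora81 by its bound. Triangles lie to the right of the circles in all 13 small RNAs, and on either side among the hosts.

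Box H/ACA RNAs come first. Snora73a, the RNA also known as U17, takes part in cleavage of the pre-ribosomal RNA and does not guide a modification. Its level was 0.69 and 1.72 in GC-1 against 3.80 and 4.13 in GC-2, and its processed signals were 1074 and 2279 in GC-1 against 5782 and 3500.4 in GC-2. Both GC-2 arrays exceeded both GC-1 arrays, and the difference was 2.76 ± 0.40 (limma adjusted p = 0.0040). Snora34 had levels of -0.97 and -1.25 in GC-1 against 1.64 and 1.62 in GC-2. Its replicates lay close together in both lines, and the difference was 2.74 ± 0.24 (limma adjusted p = 9.0e-04). Snora74a, on chromosome 18, had levels of -3.77 and -2.97 in GC-1 against -0.91 and -0.62 in GC-2 and a difference of 2.60 ± 0.34 (limma adjusted p = 0.0030), again without overlap.

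Snora81 had levels of -7.40 and -6.63 in GC-1 against -3.51 and -3.07 in GC-2. It was well above background on both GC-2 arrays and on neither GC-1 array, so its level in GC-1 is only bounded. GC-2 exceeded it by at least 6.81-fold, or 2.77 log2. The limma adjusted p of 0.0011 belongs to the measured signals and does not test this bound. The probe also entered the fit through GC-2 alone. The bound sets the GC-2 mean against the higher, on each GC-1 array, of the probe's own signal and the dimmest signal well above background. With Snora81 at this bound the median of the 13 stayed at 2.27. The bound holds for this scale alone. The measured difference of Snora81 was 1.49 under normexp background correction and 1.66 under E1A spike-in scaling. Snora23 had levels of -6.81 and -4.83 in GC-1 against -3.05 and -2.65 in GC-2. It was not well above background on GC-1 replicate 1, its GC-1 arrays lay far apart, and the difference was 2.97 ± 0.65 (limma adjusted p = 0.015). The call was lost without GC-2 replicate 2 (2.77, limma adjusted p = 0.061), and under normexp background correction the difference was 1.52.

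Snora78 had levels of -4.58 and -3.16 in GC-1 against -1.57 and -1.62 in GC-2. The GC-2 arrays were nearly equal while the GC-1 arrays spread, and the difference was 2.27 ± 0.48 (limma adjusted p = 0.014). Differences of Snora47 and Snora52 were 1.50 ± 0.44 and 1.19 ± 0.27 (limma adjusted p = 0.040 and 0.017). Neither call held in every fit. Snora47 gave 0.87 without GC-1 replicate 1 (adjusted p = 0.089), 1.44 without GC-2 replicate 1 (adjusted p = 0.111) and 1.57 without GC-2 replicate 2 (adjusted p = 0.103) by limma. Snora52 gave 1.14 without GC-1 replicate 1 (adjusted p = 0.082), 1.24 without GC-1 replicate 2 (adjusted p = 0.065) and 0.95 without GC-2 replicate 2 (adjusted p = 0.074) by limma. Their direction was the same in each of these fits. Snora47 was not called either under median scaling (1.19, limma adjusted p = 0.063), quantile normalization (1.18, 0.083), no filter on dim probes (1.5, 0.070) or by limma on the authors' deposited table (1.46, 0.100).

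Box C/D RNAs were represented by 3 probes. Snord17 had levels of -3.88 and -3.05 in GC-1 against -0.33 and 0.52 in GC-2, and the difference was 3.56 ± 0.42 (limma adjusted p = 0.0022). The lines did not overlap. Snord7, a guide for the spliceosomal RNA U6, had levels of -1.65 and -1.63 in GC-1 against -0.40 and -0.64 in GC-2. Its GC-1 arrays were almost equal, and the difference was 1.12 ± 0.24 (limma adjusted p = 0.014). That call was lost without any 1 of GC-1 replicate 1 (1.11), GC-1 replicate 2 (1.13) or GC-2 replicate 1 (0.997), with limma adjusted p-values of 0.037 to 0.063 over the 4 fits that leave out an array. It was also lost under median scaling (0.80, limma adjusted p = 0.056) and by limma on the authors' deposited table (1.07, 0.061). Snord33 had levels of -2.32 and -1.93 in GC-1 against -1.51 and -1.08 in GC-2. Its lines did not overlap, but the difference of 0.83 ± 0.28 did not pass the threshold (limma adjusted p = 0.061). It passed with the filter on all 4 arrays (limma adjusted p = 0.0433).

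Of the Cajal body RNAs, Scarna13 had levels of -4.27 and -3.03 in GC-1 against -1.52 and -1.59 in GC-2. The lines did not overlap and the difference was 2.10 ± 0.44 (limma adjusted p = 0.013). Scarna6 lay close to background, with levels of -6.26 and -5.57 in GC-1 against -5.44 and -4.48 in GC-2. GC-1 replicate 1 was not well above background, the lines were separated by a narrow margin, and the difference of 0.95 ± 0.42 was not called (limma adjusted p = 0.120). Without GC-2 replicate 1 it was 1.43 and called (limma adjusted p = 0.0496).

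The GC-1 arrays differed from each other in these RNAs. GC-1 replicate 2 was above GC-1 replicate 1 in 12 of the 13 small RNAs, with a median of 0.80 log2, against 48.7% of all probes and a median of -0.013. The median difference between the lines was 1.56 when GC-1 replicate 1 was left out. It was 2.72 when GC-1 replicate 2 was left out. On the spike-in scale the same data read otherwise: 2 small RNAs were called higher and 4 lower, the median was 0.20, and Scarna6, Snora47, Snora52, Snord33 and Snord7 turned negative. Of all 36692 tested probes, 1680 were called higher and 29907 lower on that scale. Which scale is closer to RNA per cell was not tested, and in bulk RNA fewer cells with a transcript and less of it per cell cannot be told apart.

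The host genes did not move in one direction. Of 26 probes, 19 were well above background on all 4 arrays, and these 19 probes of 15 genes were tested. No array showed Snhg14 well above background on either of its 2 probes. Snhg14 is the long imprinted transcript that carries the Snord115 and Snord116 clusters. Among the tested probes 5 were called higher, 3 lower and 11 neither, with a median of -0.26. Taking each gene by its brightest tested probe, 4 were higher, 2 lower and 9 not called, against 20.0% higher and 23.3% lower of 24103 genes.

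**Figure D2:**
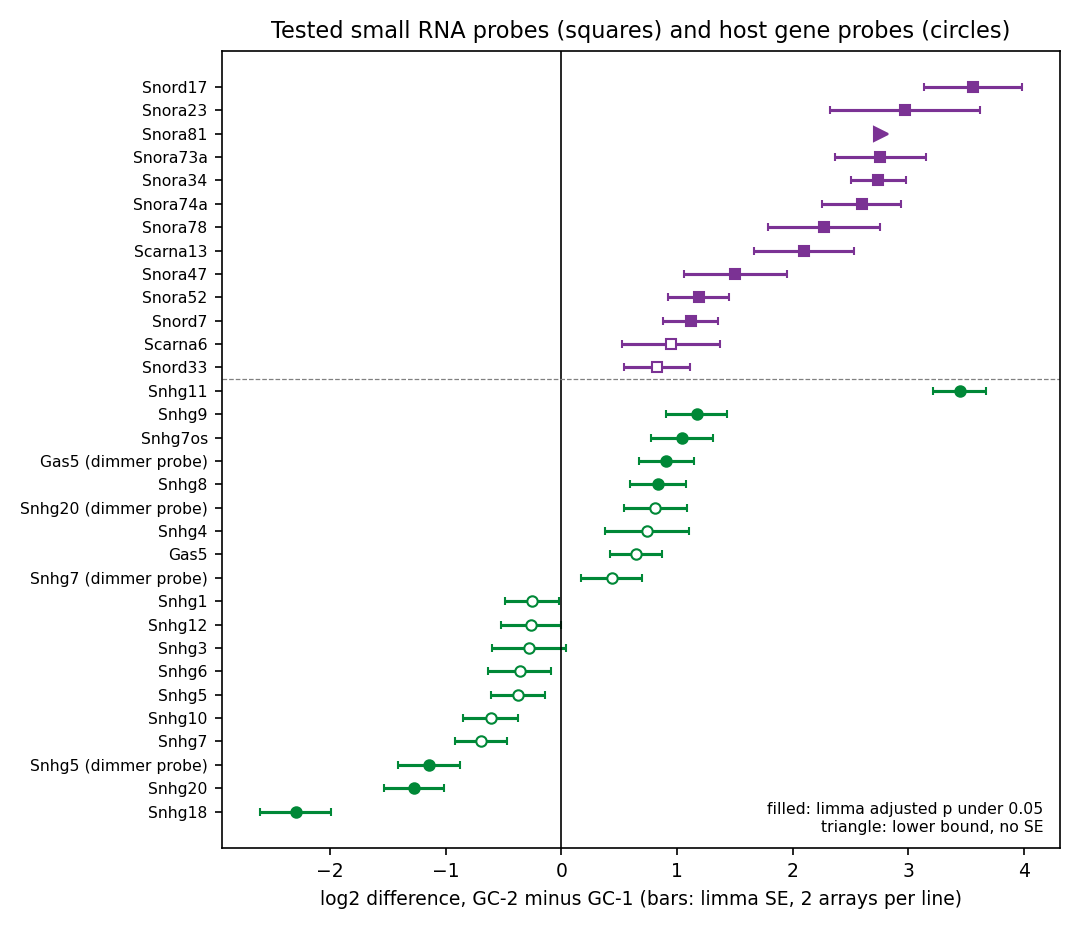
Difference between the lines for each tested probe, as log2 GC-2 minus GC-1 with the limma SE (2 arrays per line). Squares above the dashed line are small RNA probes, circles below it are host gene probes, and filled symbols have a limma adjusted p under 0.05. The triangle is the lower bound of Snora81 at 2.77. The other 12 small RNA probes lie between 0.83 and 3.56, while host probes run from -2.30 to 3.44.

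Of the hosts called higher, Snhg11 had levels of -5.60 and -5.44 in GC-1 against -2.05 and -2.10 in GC-2. It lay close to background but was well above it on all 4 arrays, and the difference was 3.44 ± 0.23 (limma adjusted p = 4.2e-04), a call kept with each array left out. Under normexp it was 1.84, also called. Its other 2 probes were not tested. Snhg9 had levels of 3.05 and 3.44 in GC-1 against 4.31 and 4.53 in GC-2 and a difference of 1.17 ± 0.26 (limma adjusted p = 0.017), with no overlap. It gave 0.98 without GC-1 replicate 1 (adjusted p = 0.078) and 1.06 without GC-2 replicate 2 (adjusted p = 0.074) by limma, and 0.98 in the authors' deposited table (limma adjusted p = 0.758). Snhg8 had levels of 5.63 and 5.35 in GC-1 against 6.26 and 6.39 in GC-2 and a difference of 0.84 ± 0.24 (limma adjusted p = 0.038). The lines did not overlap, but its call was lost with any 1 array left out, with limma adjusted p-values of 0.072 to 0.136 and differences of 0.70 to 0.98. It was also lost under normexp (0.62), median scaling (0.52), no filter (0.84) and in the authors' deposited table (0.79), with limma adjusted p-values of 0.105 to 0.158. Snhg7os, the opposite-strand neighbour of Snhg7 that the name rule takes in, had levels of -0.12 and -0.085 in GC-1 against 0.70 and 1.18 in GC-2 and a difference of 1.05 ± 0.27 (limma adjusted p = 0.025). It gave 1.03 without GC-1 replicate 1 (adjusted p = 0.102), 1.06 without GC-1 replicate 2 (adjusted p = 0.091) and 0.81 without GC-2 replicate 2 (adjusted p = 0.109) by limma. Median scaling (0.73), no filter (1.05) and the authors' deposited table (1.0) left it uncalled too, with limma adjusted p-values of 0.059 to 0.067. The rises of Snhg7os, Snhg8 and Snhg9 turned to falls on the spike-in scale (-1.02, -1.23 and -0.90).

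On the brightest tested probe of the 15 tested hosts, 2 were called lower and 4 higher, while the median difference was -0.26. The 2 called lower were Snhg18 and Snhg20. Snhg18 had levels of 5.28 and 5.29 in GC-1 against 3.33 and 2.65 in GC-2. The GC-1 arrays were equal to within 0.01 log2 and far above both GC-2 arrays, and the difference was -2.30 ± 0.30 (limma adjusted p = 0.0031). Snhg20 had levels of 4.78 and 5.22 in GC-1 against 3.72 and 3.74 in GC-2 on a probe that spans 1633 bases of the genome and so crosses an intron. The difference was -1.27 ± 0.26 (limma adjusted p = 0.012), or -1.06 without GC-1 replicate 2 (adjusted p = 0.055) by limma. In the authors' deposited table it was -0.27 and not called (limma adjusted p = 0.525). Its other probe, which lies in 60 unbroken bases of genome, had levels of -5.20 and -5.06 in GC-1 against -4.06 and -4.57 in GC-2 and a difference of 0.81 ± 0.28 in the other direction, which was not called (limma adjusted p = 0.059).

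Gas5, a host of many box C/D RNAs named for its rise in growth-arrested cells, was well above background on both of its probes. Its processed signals were 55279.6 and 54509.6 in GC-1 against 53469 and 24781 in GC-2 on the brighter probe, which spans 507 bases of the genome and crosses an intron. Levels on that probe were 6.38 and 6.30 in GC-1 against 7.01 and 6.95 in GC-2. The lines did not overlap, but the difference of 0.64 ± 0.23 was not called (limma adjusted p = 0.065). The dimmer probe had levels of 5.59 and 5.37 in GC-1 against 6.42 and 6.35 in GC-2 and a difference of 0.91 ± 0.24, which was called (limma adjusted p = 0.026) and lost with any 1 array left out (limma adjusted p = 0.064 to 0.098, differences of 0.80 to 1.02). Normexp (0.67), median scaling (0.59) and no filter (0.91) also ended that call. Both probes turned negative on the spike-in scale (-1.42 and -1.16).

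Probes of the same gene differed in call or in sign elsewhere too. Snhg5 had levels of 3.85 and 4.03 in GC-1 against 3.57 and 3.57 in GC-2 on its brighter probe, with a difference of -0.38 ± 0.23 that was not called (limma adjusted p = 0.234). Its dimmer probe had levels of -1.23 and -1.16 in GC-1 against -2.10 and -2.58 in GC-2 and was called lower at -1.14 ± 0.27 (limma adjusted p = 0.019). Without GC-1 replicate 1, GC-1 replicate 2 or GC-2 replicate 2 that call was lost, with differences of -1.18, -1.11 and -0.90 and limma adjusted p-values up to 0.084, as it was under normexp (-0.47) and no filter (-1.14). Snhg7 had levels of 3.64 and 3.63 in GC-1 against 2.94 and 2.94 in GC-2 on its brighter probe, where the difference was -0.69 ± 0.22 (limma adjusted p = 0.052). On its dimmer probe the difference was 0.44 ± 0.26 (limma adjusted p = 0.225), so that neither passed and the signs were opposite. The remaining hosts, Snhg1, Snhg3, Snhg4, Snhg6, Snhg10 and Snhg12, had differences of -0.26 ± 0.23, -0.28 ± 0.32, 0.74 ± 0.36, -0.36 ± 0.27, -0.61 ± 0.24 and -0.26 ± 0.26, with limma adjusted p-values between 0.086 and 0.503. Without GC-1 replicate 2, Snhg3 was at 0.076 and Snhg4 at 1.21, the latter called (limma adjusted p = 0.047). Under median scaling Snhg7 (-1.01) and Snhg10 (-0.93) were called lower by limma.

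Several host genes are known to begin with a terminal oligopyrimidine tract, the start that ties a transcript's translation to nutrient signalling. In the RefSeq promoters of GRCm38.p6, a C opening a run of at least 5 pyrimidines stood at the start of 3 of 17 host promoters (17.6%), against 2.51% of 32851 promoters. The 50 bases around these starts, 20 of them upstream, lie at chr1:161035146-161035195 (plus) for Gas5, chr2:26640215-26640264 (minus) for Snhg7 and chr3:123508307-123508356 (minus) for Snhg8. Capitals mark the run.
Gas5: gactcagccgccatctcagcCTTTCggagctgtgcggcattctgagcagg
Snhg7: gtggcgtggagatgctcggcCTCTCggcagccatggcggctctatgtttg
Snhg8: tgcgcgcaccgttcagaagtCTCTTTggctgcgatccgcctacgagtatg
On their brightest probes these 3 genes had differences of 0.64 ± 0.23, -0.69 ± 0.22 and 0.84 ± 0.24, of which that of Snhg8 was called. They thus held both signs.

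Each of the 13 small RNAs lay within a gene of the reference on the same strand, which allowed a comparison inside each pair. With each host taken by its brightest tested probe, the small RNA had the larger change in 13 of 13 pairs. Since the group was selected on these differences, and all 13 small RNA differences were positive, this count is a description only. Snora81, Snora23 and Scarna6 also passed the filter through GC-2 alone. The count rests on the choice of probe in 2 of the 6 pairs whose host had several tested probes. There another probe of Ipo7 (3.49) and of AA465934 (2.45) exceeded its small RNA. The difference of the changes, small RNA minus host, had a median of 2.66 log2 with Snora81 at its bound, and ranged from 0.44 to 4.52 over the other 12 pairs, and this measure does not depend on array scaling. In 12 of 13 pairs it separated the lines without overlap, and no such share was computed for pairs of other probes. Of all single probes, 40.7% were higher and 36.3% lower without overlap. Among the hosts 1 was called higher, 2 lower and 10 neither, with a median difference of -0.27. Of all genes, 20.0% were called higher and 23.3% lower. With 2 arrays against 2, an exact permutation test cannot go below p = 0.333, so no p is given for a pair.

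**Figure D3:**
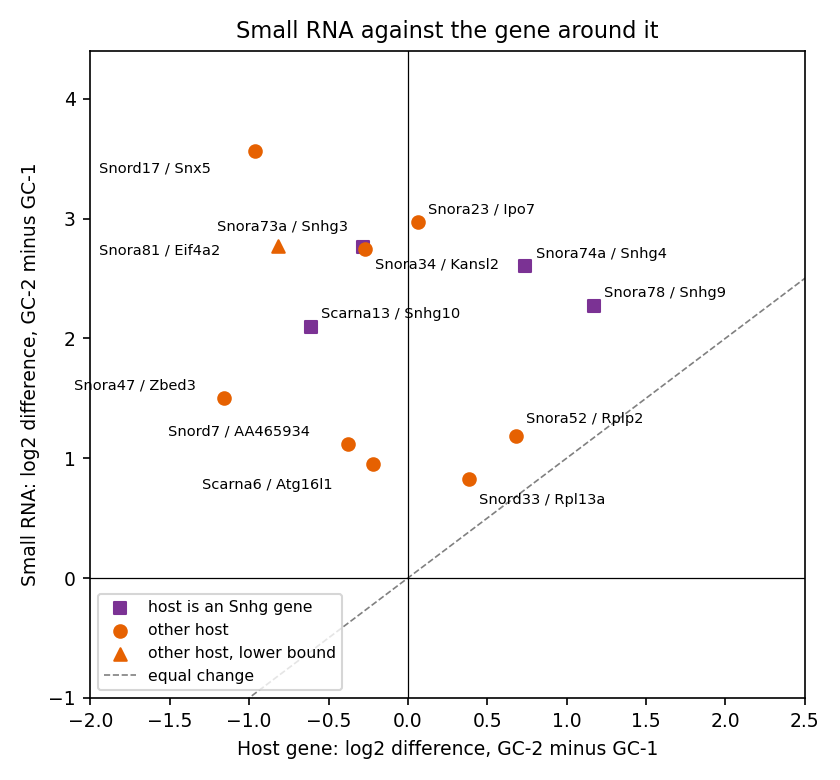
Change of each small RNA (vertical) against the change of the gene around it (horizontal, brightest tested probe), both as log2 GC-2 minus GC-1. Squares are pairs with an Snhg host, circles and the triangle the other 9 pairs, the triangle marks the lower bound of Snora81, and the dashed line marks equal change. All 13 points lie above the dashed line, with hosts between -1.16 and 1.17.

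In 4 pairs both partners belong to the group. Snora73a rose while its host Snhg3 had levels of 4.20 and 4.92 in GC-1 against 4.16 and 4.39 in GC-2. The Snhg3 arrays overlapped between the lines, and the change of Snora73a exceeded that of Snhg3 by 3.04 ± 0.16 (SE over arrays). For Scarna13 and Snhg10, read 359 bases downstream, Snhg10 had levels of 2.10 and 2.27 in GC-1 against 1.46 and 1.68 in GC-2, the opposite order from its small RNA. The changes differed by 2.71 ± 0.55. For Snora74a and Snhg4, 675 bases apart, the host had levels of -2.35 and -1.42 in GC-1 against -1.24 and -1.05 in GC-2 and the changes differed by 1.86 ± 0.084. Snora78 and Snhg9, 161 bases apart, were the pair in which the host was called higher as well, and the changes differed by 1.1 ± 0.53. These values set changes against changes only, since levels of different probes are not comparable.

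The other 9 hosts are 8 protein-coding genes and the non-coding gene AA465934. Snora81 lies inside the translation initiation helicase gene Eif4a2. At its bound, which holds for the processed signal alone, it exceeded the host's change by at least 3.58 log2. Eif4a2 had levels of 6.33 and 5.52 in GC-1 against 5.24 and 4.98 in GC-2 on its brightest probe, with a difference of -0.82 ± 0.34 (limma adjusted p = 0.104). Its other tested probes ran from -2.21 to 2.75, so the host's own change depended on the probe, and the highest of them lay just under the Snora81 bound of 2.77. Snord17 and the sorting nexin gene Snx5 differed by 4.52 ± 0.47, and Snx5 was called lower at -0.96 ± 0.24 (limma adjusted p = 0.023). That call was lost with any 1 array left out (limma adjusted p = 0.062 to 0.088), under quantile normalization (-0.69), with the percentile over detected probes (-0.76) and with no filter (-0.96).

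Snora34 in Kansl2, a subunit gene of a histone acetyltransferase complex, and Snora23 in Ipo7, an importin gene, exceeded their hosts by 3.01 ± 0.19 and 2.91 ± 0.36. Kansl2 had a difference of -0.27 ± 0.23 and Ipo7 of 0.061 ± 0.46, neither called, although another Ipo7 probe reached 3.49. Snora47 exceeded Zbed3 by 2.66 ± 0.44. Zbed3 was called lower at -1.16 ± 0.25 (limma adjusted p = 0.015), while its other probe was at 0.97. The Zbed3 call was lost without GC-1 replicate 2 (-0.96), GC-2 replicate 1 (-1.16) or GC-2 replicate 2 (-1.16), with limma adjusted p-values up to 0.066.

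Ribosomal protein genes hold 2 of the small RNAs. Snora52 exceeded Rplp2 by 0.51 ± 0.11 and Snord33 exceeded Rpl13a by 0.44 ± 0.37, and in the latter pair the lines overlapped. Rplp2 had levels of 8.24 and 8.12 in GC-1 against 8.62 and 9.10 in GC-2, with a difference of 0.68 ± 0.27 (limma adjusted p = 0.091). Rpl13a had a difference of 0.39 ± 0.25 (limma adjusted p = 0.251). Scarna6 exceeded the autophagy gene Atg16l1 by 1.17 ± 0.61, and Snord7 exceeded AA465934 by 1.50 ± 0.24, where a second AA465934 probe was at 2.45.

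Protein-coding genes around any small nucleolar or Cajal body RNA of the reference were counted as a wider set, without a condition on strand. Of 72 such genes 71 were tested, 7 were called higher and 5 lower on their brightest probe, with a median of 0.061. Over all 24103 genes, 20.0% were higher and 23.3% lower and the median was -0.037. The counts moved when any single array was left out.

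Other structured RNAs, most of which lack a poly(A) tail, read higher in GC-2 as well. This set was taken from the biotypes of the reference after the values of the small RNAs had been seen. Of 16 probes 13 were called higher, 0 lower and 3 neither, with a median of 2.82 and a range from 0.18 to 5.96, beside the 24.1% and 21.6% of all probes given above. Large-subunit ribosomal RNA (Rn28s1) had processed signals of 558 and 1349.9 in GC-1 against 21856 and 23946 in GC-2. The GC-2 signals exceeded those of GC-1 many times over, and the difference was 5.96 ± 0.56 (limma adjusted p = 0.0011). The spliceosomal U1 genes Rnu1b1, Rnu1b6 and Rnu1a1 had differences of 4.31 ± 0.54, 4.15 ± 0.58 and 3.81 ± 0.60. As near-identical copies they are not separate evidence.

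Among the rest, Rnu3b1, for the nucleolar U3 RNA that works in early ribosomal RNA processing, had processed signals of 296 and 414 in GC-1 against 2116 and 1066 in GC-2 and a difference of 3.34 ± 0.26 (limma adjusted p = 6.5e-04). U3 is itself a box C/D RNA, which the name rule did not take in. Rn7sk, an inhibitor of transcription elongation, was at 3.93 ± 0.45, the RNase P RNA Rpph1 at 3.16 ± 0.38, the signal recognition particle RNA Rn7s1 at 2.33 ± 0.62 and the RNase MRP RNA Rmrp at 1.20 ± 0.26, all called by limma. Not called were Terc at 0.60 ± 0.26, the telomerase RNA and itself an H/ACA RNA, Rn4.5s at 0.50 ± 0.25 and Rnu12 at 0.18 ± 0.23 (limma adjusted p = 0.110, 0.162 and 0.567).

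**Figure D4:**
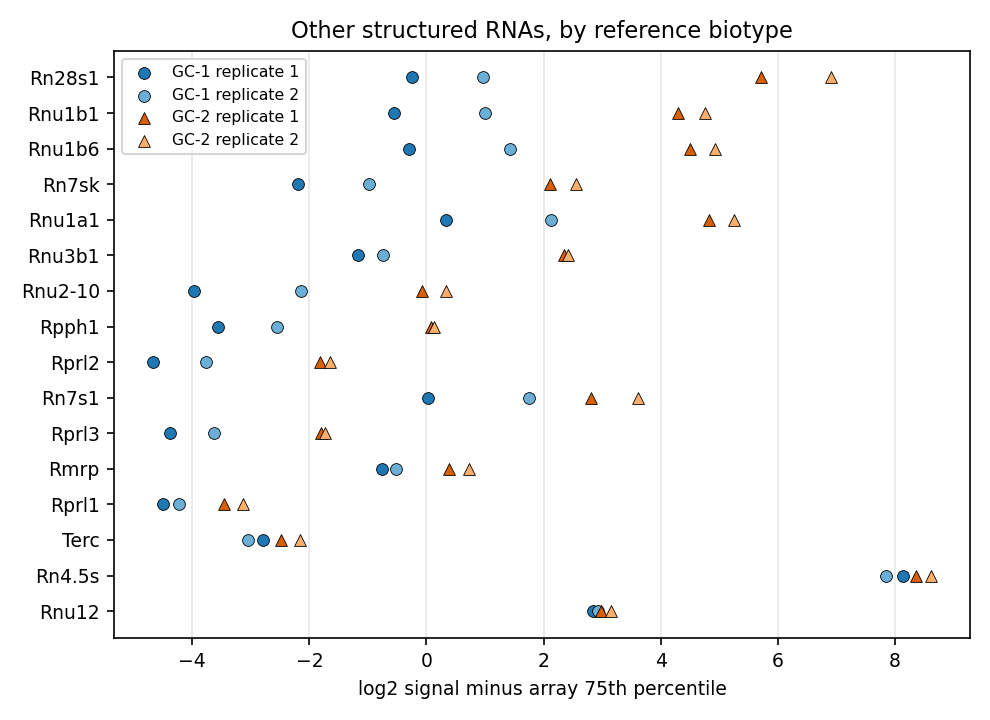
Levels on each array of 16 probes for other structured RNAs, as log2 processed signal minus the array's 75th percentile. Circles are GC-1 and triangles GC-2, 1 point per array. The largest gap between the lines is that of Rn28s1 at 5.96 log2, and GC-1 replicate 2 lies above GC-1 replicate 1 in 14 of the 16.

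The order of the GC-1 arrays recurred in these RNAs, with replicate 2 above replicate 1 in 14 of 16 and a median of 0.95 log2, against 48.7% of all probes. Messenger RNAs of the replication-dependent histones also end without a poly(A) tail, and their probes were taken by gene name. By limma, 35 of 60 tested probes were called higher in GC-2 and 5 lower, beside 24.1% and 21.6% of all probes. The median of the 60 was 1.70, with a range from -9.10 to 5.84. In 46 of these 60, GC-1 replicate 2 exceeded replicate 1, again against 48.7%. The part that RNAs without a poly(A) tail, or the preparation of the RNA, have in the differences of the small nucleolar RNAs was not tested.

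Genes that build, process and use these RNAs showed no shared direction. Of 70 genes in 8 lists, all tested, 10 were called higher and 14 lower, with a median of -0.12, beside the 20.0% and 23.3% of all genes given above. None of the 4 box C/D core proteins (Fbl, Nop56, Nop58 and Snu13) passed the limma test in either direction, and their differences ran from -0.46 to 0.37. Of the 4 H/ACA core proteins Dkc1, the pseudouridine synthase, was called higher at 2.08 ± 0.37 (limma adjusted p = 0.0076). Of 9 assembly factors 2 were higher and 3 lower. They included Znhit3 at 1.79 ± 0.31 and Znhit6 at 1.06 ± 0.22, which act in box C/D assembly, and Shq1, the chaperone of Dkc1, at -1.55 ± 0.31. Of 6 Cajal body and nucleolar chaperones 1 was called, Nolc1, which binds both kinds of particle, lower at -1.48 ± 0.23 (limma adjusted p = 0.0051).

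Of 17 genes for processing of RNA ends and intron debranching 2 were higher and 6 lower. Exosc3, a cap subunit of the exosome, was at -1.73 ± 0.24, Tent4b, a poly(A) polymerase that marks nuclear RNAs for trimming, at -1.30 ± 0.30, and the nuclear exonuclease Xrn2 at -1.21 ± 0.23. Nonsense-mediated decay, which degrades many spliced host transcripts, had 2 of 10 genes higher and 1 lower. Upf1, its helicase, was at 1.03 ± 0.25, Upf3b at 1.04 ± 0.26 and the endonuclease Smg6 at -1.18 ± 0.29. Of 5 genes acting on translation of oligopyrimidine-tract mRNAs, the repressor Eif4ebp2 was higher at 2.55 ± 0.44, and Rptor at -1.20 ± 0.24 and Larp1 at -0.88 ± 0.23 were lower. Of 15 genes of ribosomal RNA synthesis and early processing 2 were higher, the U3 particle protein Rrp9 at 2.07 ± 0.31 and the RNA polymerase I subunit Polr1b at 1.78 ± 0.28, and 1 was lower, the U3 particle protein Imp4 at -0.83 ± 0.25.

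The limma calls of Dkc1, Znhit3, Nolc1, Exosc3, Xrn2, Eif4ebp2, Rrp9 and Polr1b were kept with each array left out in turn. Those of Znhit6 (adjusted p = 0.052 to 0.060), Larp1 (adjusted p = 0.065 to 0.107) and Imp4 (adjusted p = 0.081 to 0.141) were lost with any 1 array left out. Shq1 and Rptor were lost without GC-1 replicate 1 (-1.26 and -1.10) or GC-2 replicate 2 (-1.38 and -1.12). Tent4b and Smg6 were lost without GC-1 replicate 1 (-0.98 and -0.89), GC-2 replicate 1 (-1.36 and -1.24) or GC-2 replicate 2 (-1.23 and -1.12). Upf3b was lost without GC-1 replicate 2 (0.84), GC-2 replicate 1 (1.01) or GC-2 replicate 2 (1.07). Upf1 was lost without GC-1 replicate 1 (1.15), GC-1 replicate 2 (0.92) or GC-2 replicate 2 (0.91). Under normexp Shq1 (-0.86), Znhit6 (0.82) and Upf1 (0.83) were not called, and under median scaling Znhit6 (0.75), Upf3b (0.72) and Upf1 (0.72). With no filter Smg6, Upf3b, Upf1, Larp1 and Imp4 were not called. Larp1 (-0.68) and Imp4 (-0.63) were lost with the percentile over detected probes, and Imp4 under quantile normalization (-0.62).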

How the data were processed

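Each line, GC-1 or GC-2, has 2 one-colour Agilent arrays, grouped and numbered by their titles. Per the file headers, Feature Extraction 11.5.1.1 made the deposited processed intensity, which is background-subtracted and not normalized between arrays. Probe positions are mm9, per the file headers. The authors' deposited table of log2 values has medians of -3.78 and -3.67 (GC-1), then -3.64 and -3.53 (GC-2). Its scale constant and the way probes of a gene were combined are not given in the sources used here.

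Control spots and the 92 to 224 outlier spots per array were dropped. Intensities were turned into log2, averaged over the spots of a probe and reduced by the array's 75th percentile. No spot was saturated. Well above background were 57.5% to 64.9% of probes, and the number of arrays limits the precision. Pearson's r across probes was 0.989 and 0.990 within lines and 0.896 to 0.910 between them. The 36692 probes that stood well above background on both arrays of either line entered the fit (limma 3.58.1, R 4.3.3, lmFit with eBayes, two-sided, Benjamini-Hochberg). In simulated data of 36692 probes, the called probes were changed as measured and all others left unchanged, with noise drawn from the fitted limma prior. Of calls on changed probes 99.98% had the right sign, and 2.50% of all calls fell on unchanged probes. Of changes of 2-fold to 4-fold 81.9% were called. These changes had already passed the same test, so this share does not give the power of these arrays. With changes put on 200 probes alone, 0 were called.

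The members and gene lists were chosen with earlier results of these data known. Named are every host gene, the 6 brightest small RNAs, up to 6 called with the largest differences, those of Cajal bodies or paired with a described host, and up to 3 called genes per list. Host and list genes stand for their brightest tested probe. Pairs are small RNAs inside a gene of the RefSeq table of GRCm38, with strand from probe positions. Strand could not be applied to the wider set of protein-coding genes. Names came from that table for 32994 probes by accession, 10224 by symbol and 520 by synonym, while 12867 kept the file's name. Promoter sequences of 14 of the 16 host genes come from RefSeq. Alternatives were normexp, other scalings and filters, leaving out each array, a replicate block and the authors' table. Comparisons inside pairs and pathway genes under these alternatives, and the sets of other structured RNAs and histone genes, were added after seeing the data.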

Additional observations from a re-analysis of the deposited data

How the results depend on the processing

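With only 2 arrays per line, calls near the threshold are unstable, and signal over background limits Snora81, Snora23 and Scarna6. Outside E1A spike-in scaling, each of the 13 small RNAs kept its direction in all alternatives, and of the 15 host genes all but Snhg12 (0.0065 under quantile normalization) and Snhg3 (-0.64 to 0.076 with 1 array left out). The small RNA exceeded its host in 10 of 10 pairs left by the filter on all 4 arrays and in 13 of 13 under the other refits. Scalings that shift a whole array, spike-in scaling included, cancel within a pair. Filters and the replicate block leave each difference as it was. Only normexp, quantile normalization and leaving out an array could therefore have changed the order within a pair.

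Spike-in scaling left 2 small RNA probes higher and 4 lower (median 0.20), 1 host probe higher and 18 lower (median -2.32), 0 pathway genes higher and 65 lower, and 0 protein-coding hosts higher and 71 lower. Over all 36692 tested probes, that scaling left 1680 higher and 29907 lower. It turned Scarna6 to -1.12, Snora47 to -0.56, Snora52 to -0.88, Snord33 to -1.24, Snord7 to -0.95, Gas5 to -1.42 (dimmer probe -1.16), Snhg4 to -1.33, Snhg7os to -1.02, Snhg8 to -1.23, Snhg9 to -0.90, Znhit3 to -0.27, Znhit6 to -1.0, Upf3b to -1.03, Upf1 to -1.04 and Polr1b to -0.29. These follow from the shift of all values. The median of all probes moved from 0.068 to -2.0 and the share of calls that were higher from 52.7% to 5.32%. That median and share were 0.50 and 65.3% under normexp, -0.25 and 39.0% under median scaling, 0.27 and 61.8% with the percentile over detected probes, and 0.44 and 58.5% with no filter.

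Normexp gave a small RNA median of 1.52, a small minus host median of 1.92 (2.53 as reported), 6 pathway genes higher and 4 protein-coding hosts higher. Median scaling gave 2 host probes higher and 5 lower (median -0.57), 5 pathway genes higher, and 3 protein-coding hosts higher and 11 lower. Quantile normalization gave a host median of 0.0065, a small minus host median of 2.02 and 4 protein-coding hosts higher. The percentile over detected probes gave 15 protein-coding hosts higher and 2 lower. With no filter the host median was 0.75, the small minus host median 1.52, pathway genes 6 higher and 7 lower, and protein-coding hosts 2 and 2. The causes of these changes were not tested.

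Leaving out 1 array gave 8 to 10 small RNA probes higher (medians 1.56 to 2.72), 1 to 3 host probes higher and 1 to 3 lower (medians -0.17 to 0.076), a small minus host median of 1.74 to 2.64, pathway genes 5 to 7 higher and 3 to 8 lower, and protein-coding hosts 1 to 5 higher and 0 to 2 lower. Replicate numbers shared by the lines do not show that samples are paired (correlation of same-numbered deviations 0.124). With the replicate block 13 small RNA probes were higher, now with Scarna6 (limma adjusted p = 0.030) and Snord33 (0.0435) among them, and host probes 5 higher and 3 lower.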
